A study of Danio rerio with 6 samples.

Results

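The vacuolar ATPase (V-ATPase) genes were compared between maternal zygotic (MZ) *tafazzin* mutant larvae and wild-type larvae of the zebrafish. Members were all genes of the deposited table whose symbol names a V0 subunit, a V1 subunit or an accessory protein of the ATP6AP1 and ATP6AP2 families, with 1 matching gene left out. This gave 25 of 27335 genes, of which 9 belong to V0, 11 to V1 and 5 to the accessory group. Of the 25, 24 averaged 0.5 FPKM or more (fragments mapped, scaled to exon length and to the size of the library) over all pools and were tested. The gene that was not tested was *atp6v1c2*, a C subunit gene.

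RNA was taken at 5 days post-fertilization from 3 pools of 25 whole larvae per genotype, with 1 library per pool. MZ mutants carried a 1 base pair deletion in exon 3 of *tafazzin* (*taz* E3/E3) and lacked the wild-type transcript from both mother and zygote. They came from an incross of homozygous mutants, and wild-type larvae from an incross of homozygous wild-type (*taz* +/+) siblings, whereas the methods place all pools in 1 clutch. Parental cross and genotype therefore cannot be told apart. Only 1 mutant allele was studied, and a value is the average over all tissues of 25 animals, so a difference in RNA per cell and a difference in the number of cells of a type cannot be told apart. Pools are named by the numbers 0 to 2 of the deposited columns.

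The *tafazzin* transcript itself, listed as *taz*, was at 6.09, 4.58 and 3.84 FPKM in mutant pools and at 12.3, 12.0 and 8.53 FPKM in wild-type pools (limma, -1.04 on the log2 scale, adjusted p = 0.0468). Leaving out wild-type pool 2 kept this call, and without any other single pool it was lost (limma, adjusted p between 0.0806 and 0.184). FPKM summed to between 501725 and 522531 in mutant pools and between 512587 and 540974 in wild-type pools. From the step that 1 fragment makes in low genes, pools held 0.84 to 1.29 times the fragments of mutant pool 0. Genes that mark larval tissues were present in every pool, such as the muscle actin gene *actc1b* with a mean of 7194 FPKM in mutants and 7740 FPKM in wild-type, and the liver gene *fabp10a* with 376 FPKM in mutants and 386 FPKM in wild-type. Of 16 such markers, 0 were called by limma, against 0.696% of all genes tested called higher and 0.215% called lower. At an unadjusted p under 0.05, 2 were higher and 2 lower, against 9.88% and 6.4% of all genes tested. The higher ones, both with overlap between genotypes, were the glial gene *gfap* and the rod opsin gene *rho*. *gfap* had a mean of 83.9 FPKM in mutants and 64.8 FPKM in wild-type, and *rho* 1434 FPKM in mutants and 951 FPKM in wild-type. Wild-type pools of *rho* ran from 603 to 1367 FPKM. The lower ones were the trypsin gene *try* and the skin keratin gene *krt4*. *try* had a mean of 1924 FPKM in mutants and 2848 FPKM in wild-type (limma, adjusted p = 0.0569). *krt4* had 2075 FPKM in mutants and 2924 FPKM in wild-type. All mutant pools lay below all wild-type pools in *try*, *krt4* and the marker *mylpfa*, against 10.5% of all genes tested.

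The V-ATPase is a rotary pump that spends ATP to move protons across membranes. Its V1 sector lies in the cytosol, where the A and B subunits form the ring that hydrolyses ATP. The V0 sector lies in the membrane, where a ring of c subunits turns against the a subunit and carries the protons. The pump acidifies lysosomes, endosomes, secretory granules and synaptic vesicles. In the skin of zebrafish larvae it also sits in the apical membrane of H+-ATPase-rich ionocytes, which secrete acid.

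No V-ATPase gene passed the test between genotypes, while most had a somewhat higher mean in mutants. By limma on log2(FPKM + 1), with Benjamini-Hochberg adjustment over 21843 genes and a threshold of 0.05, 0 of 24 members were higher and 0 were lower, against 0.696% and 0.215% of all genes tested. At an unadjusted p under 0.05, 8 of 24 members were higher, against 9.88% of all genes tested, and 0 were lower, against 6.4%. That count of 8 was 3 without mutant pool 2, 4 without wild-type pool 0 and 6 to 9 without any other single pool. In 7 of 24 members all mutant pools lay above all wild-type pools, against 11.9% of all genes tested, and in 0 members all lay below, against 10.5%. The log2 fold change was above 0 in 21 of 24 members, against 50.4% of all genes tested. After quantile normalization of the pools it was above 0 in 16 of 24, and the share over all genes was not computed in that fit. Among genes that averaged 10 FPKM or more, all mutant pools lay above all wild-type pools in 16.0%. The log2 fold change was above 0 in 52.2% of them. Median log2 fold changes were 0.19 for V0, 0.19 for V1 and 0.06 for the accessory genes, against 0.002 over all genes and 0.01 over the 8058 genes that averaged 10 FPKM or more. After quantile normalization the V0, V1 and accessory medians were 0.13, 0.11 and -0.003, against -0.020 over all genes. The accessory median was 0.10 without wild-type pool 0.

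**Figure D1:**
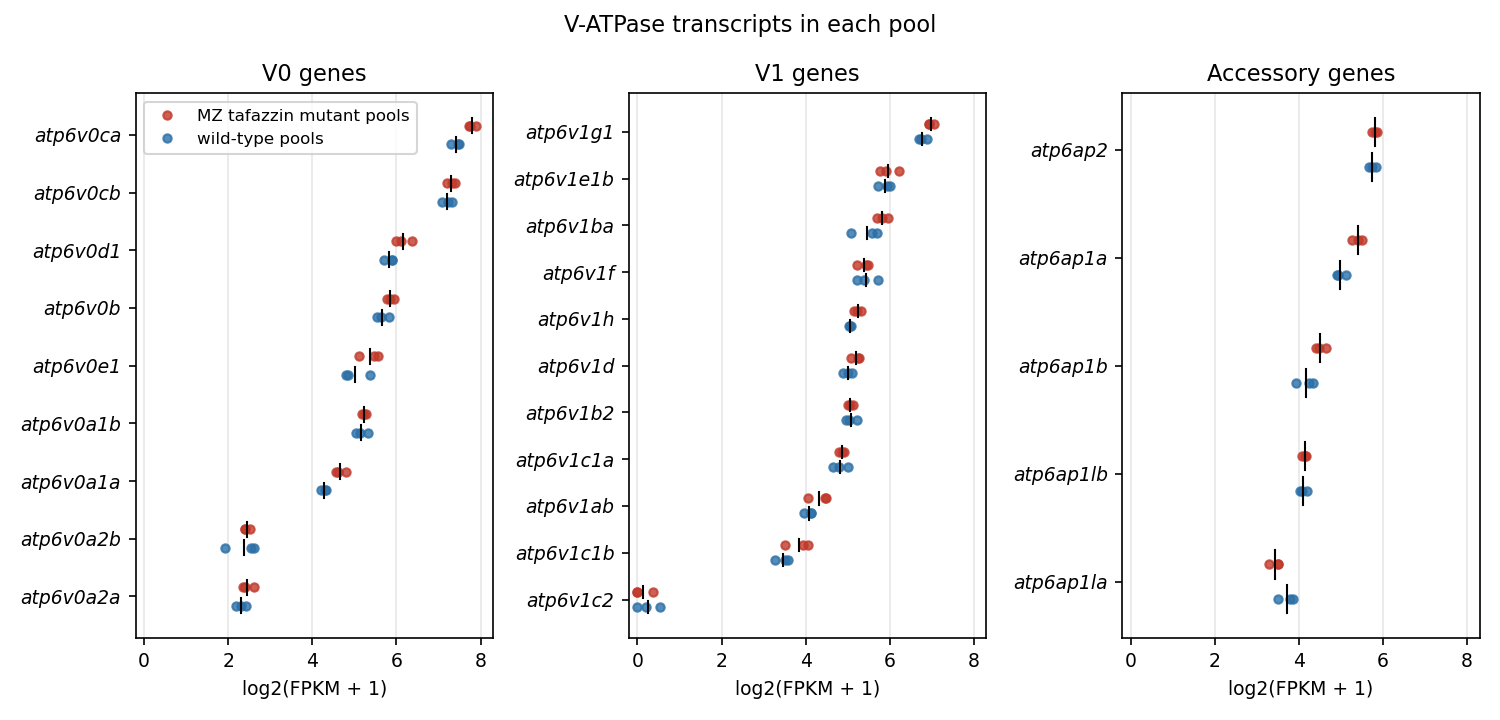
Level of each V-ATPase gene in each pool, as log2(FPKM + 1) on the horizontal axis, with MZ *tafazzin* mutant pools in red above wild-type pools in blue and the mean of 3 pools as a black line. Mutant and wild-type points lie apart in 7 genes, among them *atp6v0ca* and *atp6v0a1a*, and overlap in the others.

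Within V0, the genes for the c subunit of the ring had the highest levels. *atp6v0ca* encodes a c subunit and is placed at 16044677 to 16055463 of chromosome 3 (GRCz11). It was at 216, 210.3 and 237 FPKM in mutant pools, against 156, 175 and 177 FPKM in wild-type pools. All mutant pools were above all wild-type pools, with a 1.30-fold ratio of means (limma, 0.38 on the log2 scale with a standard error of 0.09, adjusted p = 0.0853), and this was the smallest p of the 24 members. Its paralog *atp6v0cb*, on chromosome 24 from 39158282 to 39175750, was at 147, 159 and 167 FPKM in mutant pools, against 135, 158 and 148 FPKM in wild-type pools. These ranges overlapped, with a difference of 0.10 on the log2 scale (limma, with a standard error of 0.09, adjusted p = 0.626), which was 0.042 without wild-type pool 0, 0.059 without mutant pool 2 and 0.15 without wild-type pool 1. The c″ subunit of the same ring is encoded by *atp6v0b*, which was at 56.5, 53.7 and 60.5 FPKM in mutant pools, against 45.4, 55.5 and 49.0 FPKM in wild-type pools, where wild-type pool 1 lay within the mutant range. Its log2 fold change was 0.19, and 0.12 without wild-type pool 0. Together both c subunit genes held 61.4% ± 0.485 of the summed V0 FPKM in mutants and 61.4% ± 0.241 in wild-type larvae (SD, n = 3 pools each), so this share was nearly the same in every pool.

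The a subunit, which forms the path of the protons past the ring, is encoded by 4 of the members. *atp6v0a1a*, on chromosome 3 from 16922164 to 16973129, was at 22.6, 23.4 and 26.9 FPKM in mutant pools, against 18.9, 17.5 and 18.6 FPKM in wild-type pools. The genotypes did not overlap, and the ratio of means was 1.33-fold, which did not pass the test (limma, 0.38 on the log2 scale with a standard error of 0.10, adjusted p = 0.113). Its paralog *atp6v0a1b* lies on chromosome 24 and was at 37.7, 36.3 and 35.2 FPKM in mutant pools, against 31.6, 34.0 and 39.0 FPKM in wild-type pools. All mutant values fell inside the wild-type range (limma, 0.06 on the log2 scale with a standard error of 0.10, adjusted p = 0.794). The a2 isoforms, which in mammals are found on endosomes and the Golgi, were the lowest V0 genes. *atp6v0a2a* averaged 4.48 ± 0.534 FPKM in mutants and 3.98 ± 0.413 FPKM in wild-type, and *atp6v0a2b* averaged 4.44 ± 0.287 FPKM in mutants and 4.26 ± 1.27 FPKM in wild-type (SD, n = 3 pools each). In *atp6v0a2b* wild-type pool 1 stood low, at 2.81 FPKM against 5.12 and 4.86 FPKM in the other wild-type pools.

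The d subunit joins the c ring to the rotor of V1. Its gene *atp6v0d1* was at 62.6, 67.5 and 81.4 FPKM in mutant pools, against 51.4, 58.2 and 58.6 FPKM in wild-type pools. The pools of each genotype did not overlap, and mutant pool 2 was the highest (limma, 0.32 on the log2 scale with a standard error of 0.11, adjusted p = 0.205, and 0.21 without that pool). *atp6v0e1*, which encodes the small e subunit and is given 1 locus together with 1 other gene, was at 33.6, 46.1 and 43.1 FPKM in mutant pools, against 26.7, 40.4 and 27.8 FPKM in wild-type pools. Both genotypes held a spread of over 10 FPKM, and they overlapped (limma, 0.37 on the log2 scale with a standard error of 0.17, adjusted p = 0.329).

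In V1, both B subunit genes and an A subunit gene of the catalytic ring were measured. *atp6v1ba*, a B subunit gene on chromosome 17, was at 55.5, 50.6 and 61.4 FPKM in mutant pools, against 32.8, 47.2 and 50.6 FPKM in wild-type pools. Wild-type pool 0 stood low and wild-type pool 2 just met the lowest mutant pool (limma, 0.37 on the log2 scale with a standard error of 0.16, adjusted p = 0.286). Without wild-type pool 0 its log2 fold change was 0.19. The other B subunit gene, *atp6v1b2*, was at 31.2, 32.4 and 34.0 FPKM in mutant pools, against 31.9, 36.1 and 30.3 FPKM in wild-type pools, with ranges that overlapped. *atp6v1ab* encodes an A subunit, which binds and splits ATP. It was at 15.6, 21.2 and 20.9 FPKM in mutant pools, against 14.5, 16.6 and 16.6 FPKM in wild-type pools. Mutant pool 0 lay within the wild-type range and both other mutant pools above it (limma, 0.25 on the log2 scale with a standard error of 0.13, adjusted p = 0.392, and 0.39 on the log2 scale without mutant pool 0).

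The stalks of V1 hold the catalytic ring in place and are built from the E and G subunits, with the C subunit at their foot. *atp6v1g1*, the G subunit gene, had the highest V1 level, at 121, 121 and 132 FPKM in mutant pools, against 117, 107 and 102 FPKM in wild-type pools. The genotypes did not overlap, with a 1.15-fold ratio of means (limma, 0.20 on the log2 scale with a standard error of 0.08, adjusted p = 0.286). *atp6v1e1b*, the E subunit gene, stands in a stretch of chromosome 4 listed as 1 locus of 33 genes. It was at 53.4, 59.0 and 73.9 FPKM in mutant pools, against 62.8, 51.6 and 60.6 FPKM in wild-type pools, so the ranges overlapped. *atp6v1c1b* was at 10.3, 14.4 and 15.7 FPKM in mutant pools, against 8.58, 11.0 and 10.5 FPKM in wild-type pools, with mutant pool 0 inside the wild-type range (limma, 0.38 on the log2 scale with a standard error of 0.16, adjusted p = 0.298). *atp6v1c1a*, the more abundant copy, was at 26.9, 28.3 and 28.9 FPKM in mutant pools, against 31.1, 26.6 and 24.1 FPKM in wild-type pools, and all mutant values lay within the wild-type range. *atp6v1c2* was at 0.301 FPKM in mutant pool 1 and at 0.156 and 0.442 FPKM in wild-type pools 0 and 2, and is listed at 0 in the other pools.

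The D and F subunits form the rotor of V1, and the H subunit restrains V1 that has come off the membrane. *atp6v1d* was at 32.7, 37.9 and 36.7 FPKM in mutant pools, against 31.1, 28.7 and 33.4 FPKM in wild-type pools, with wild-type pool 2 inside the mutant range. *atp6v1f* averaged 41.0 ± 4.06 FPKM in mutants and 42.9 ± 8.17 FPKM in wild-type larvae (SD, n = 3 pools each), and its highest value of all pools, 52.0 FPKM, was in wild-type pool 1. *atp6v1h* was at 34.7, 36.4 and 38.9 FPKM in mutant pools, against 32.1, 31.9 and 32.7 FPKM in wild-type pools. Relative to their mean, the wild-type pools of *atp6v1h* were the closest together of any member, with an SD of 1.31% of the mean, and all mutant pools lay above them (limma, 0.18 on the log2 scale with a standard error of 0.08, adjusted p = 0.332).

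Among the accessory genes, *atp6ap1a* had the largest log2 fold change of the 24 members tested. Its product, known in mammals as Ac45, helps to assemble V0 and goes with the pump to its membranes. *atp6ap1a* was at 37.5, 41.6 and 44.4 FPKM in mutant pools, against 29.2, 29.2 and 33.8 FPKM in wild-type pools. All mutant pools were higher, with a 1.34-fold ratio of means (limma, 0.41 on the log2 scale with a standard error of 0.10, adjusted p = 0.0964). The paralog *atp6ap1b* was at 21.1, 20.1 and 24.0 FPKM in mutant pools, against 14.3, 19.2 and 17.8 FPKM in wild-type pools, again without overlap (limma, 0.34 on the log2 scale with a standard error of 0.13, adjusted p = 0.239). Without wild-type pool 0 its log2 fold change was 0.22. *atp6ap1la*, a gene named for its likeness to *ATP6AP1*, was the member with the lowest log2 fold change. It was at 8.84, 10.3 and 10.3 FPKM in mutant pools, against 10.3, 13.6 and 12.7 FPKM in wild-type pools, where wild-type pool 0 met the mutant range (limma, -0.28 on the log2 scale with a standard error of 0.13, adjusted p = 0.335). Its paralog *atp6ap1lb* averaged 16.5 ± 0.651 FPKM in mutants and 16.2 ± 0.991 FPKM in wild-type larvae (SD, n = 3 pools each). *atp6ap2*, which encodes the accessory protein also known as the prorenin receptor, was at 56.9, 52.7 and 55.5 FPKM in mutant pools, against 55.9, 49.7 and 52.6 FPKM in wild-type pools (limma, 0.06 on the log2 scale with a standard error of 0.08, adjusted p = 0.760).

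**Figure D2:**
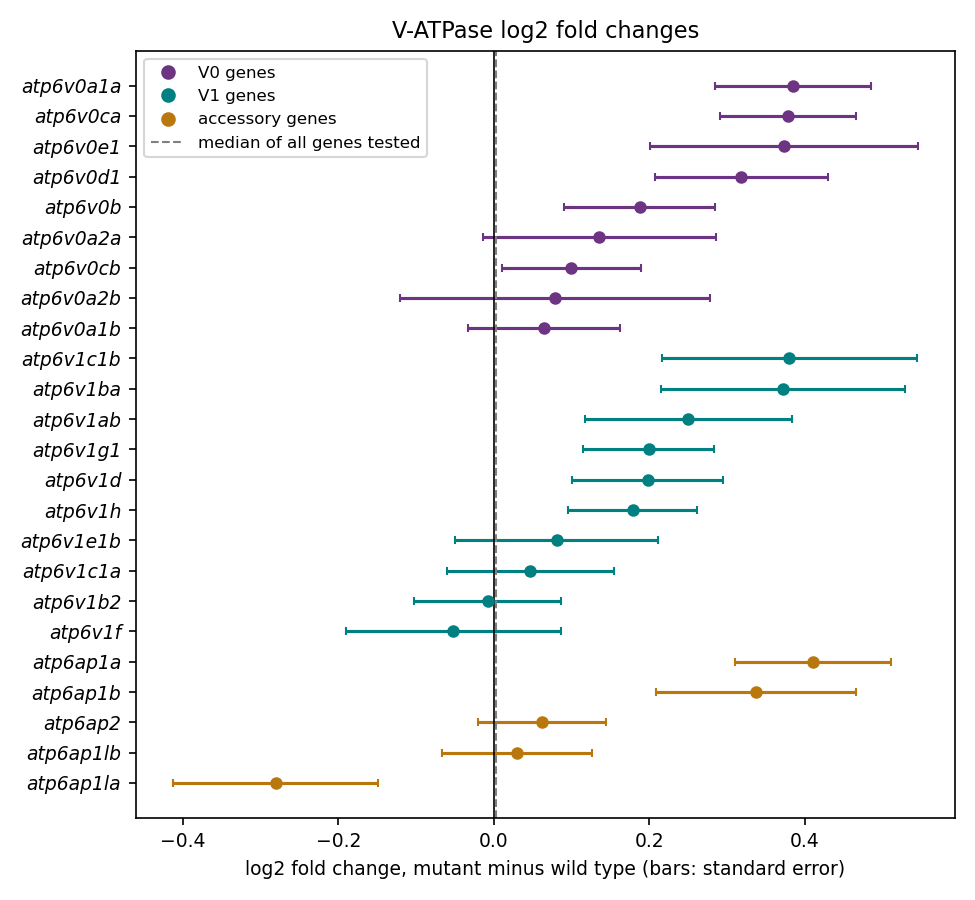
Log2 fold change of each of the 24 V-ATPase genes tested, mutant minus wild type on log2(FPKM + 1), with bars of 1 standard error and the median of all genes tested as a dashed line. Of the 24 points 21 lie above 0 (16 after quantile normalization), from -0.28 for *atp6ap1la* to 0.41 for *atp6ap1a*, and none passed the test.

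*atp6ap1a* is also the gene next to *tafazzin*. On chromosome 23 (GRCz11) it is placed at 4899235 to 4915150 and *tafazzin* at 4915965 to 4925666, so 815 bases separate them in the deposited table. Of 18 genes tested within 250000 bases of *tafazzin*, *atp6ap1a* included and *tafazzin* not counted, 1 passed the test, the uncharacterized *LOC103909653*. It is listed at 0 in all mutant pools, against 4.18, 2.38 and 4.15 FPKM in wild-type pools (limma, adjusted p = 0.00862), and was singled out after its values were seen. Over all genes tested, 0.696% passed as higher and 0.215% as lower. At an unadjusted p under 0.05, 2 of the 18 were higher in mutants, against 9.88% of all genes tested, and 3 were lower, against 6.4%, and *atp6ap1a* was 1 of the 2. Chromosome 23 also carries *atp6ap1b* from 26079472 to 26094181 and *atp6ap1lb* from 19564393 to 19583814, far from *tafazzin*. Whether the place of *atp6ap1a* beside the mutated gene had a part in its value was not tested.

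Summed over a sector, FPKM was higher in every mutant pool than in every wild-type pool. The V0 sum was 586, 605 and 659 FPKM in mutant pools, against 475, 546 and 528 FPKM in wild-type pools, a 1.19-fold ratio of means. The V1 sum, over the 11 V1 members, was 424, 438 and 487 FPKM in mutant pools, against 402, 409 and 398 FPKM in wild-type pools, a 1.12-fold ratio. The accessory sum was 140.2, 142 and 151 FPKM in mutant pools, against 125, 129 and 133 FPKM in wild-type pools, also a 1.12-fold ratio. No p is given for these sums. Mutant pool 2 was the highest in all of them, and it was the highest mutant pool in 15 of the 24 members tested. Without mutant pool 2 the ratio was 1.15 for V0, 1.07 for V1 and 1.09 for the accessory genes.

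**Figure D3:**
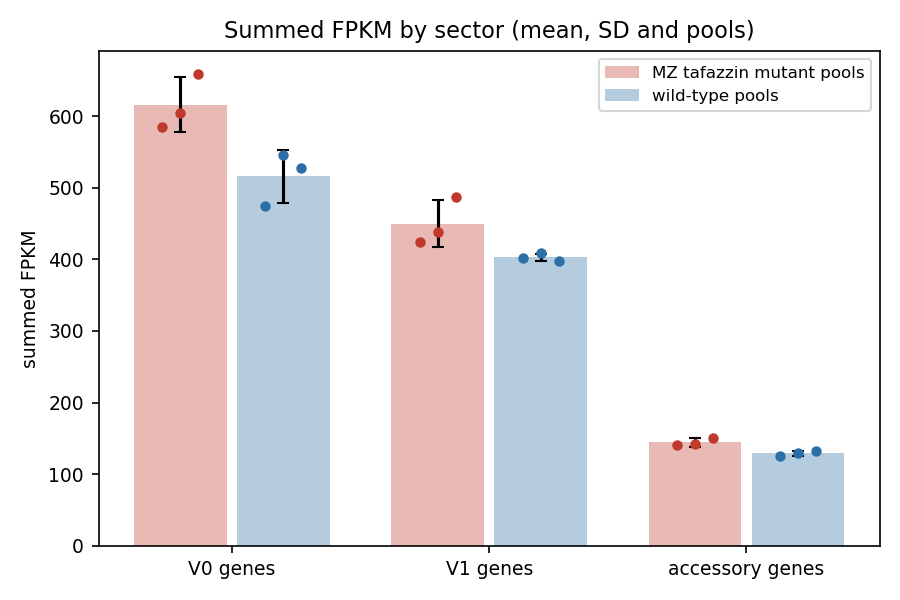
Summed FPKM of the V0, V1 and accessory genes, with bars for the mean of 3 pools, error bars for the SD and points for single pools, MZ *tafazzin* mutants in red and wild-type in blue. Mutant points lie above wild-type points in each sector, by a ratio of means of 1.19 in V0 and 1.12 in the others.

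Because zebrafish kept a second copy of many V-ATPase genes, the share of 1 gene in the summed FPKM of a pair was compared, which does not change when a pool is rescaled by a single factor. Over 7 pairs, the smallest p that 3 pools against 3 allow in an exact permutation test is 0.1, so no pair could reach 0.05. *atp6v0ca* made up 59.4%, 57.0% and 58.7% of both c subunit genes in mutant pools, against 53.6%, 52.6% and 54.6% in wild-type pools. This was 4.77 percentage points more, without overlap (exact permutation test, two-sided, p = 0.1, adjusted p = 0.233). For the a1 genes, *atp6v0a1a* made up 37.5%, 39.2% and 43.4% in mutant pools, against 37.4%, 34.0% and 32.3% in wild-type pools, so the lowest mutant pool and the highest wild-type pool were almost level (exact permutation test, two-sided, p = 0.1, adjusted p = 0.233). In both of these pairs the gene whose share was higher in mutants than in wild-type lies on chromosome 3. Its paralog lies on chromosome 24, and whether these positions had a part was not tested. *atp6ap1la* made up 35.9%, 37.7% and 38.1% of its pair in mutant pools, against 40.1%, 44.0% and 44.5% in wild-type pools, or 5.62 percentage points less (exact permutation test, two-sided, p = 0.1, adjusted p = 0.233). This pair, also without overlap, lies on other chromosomes, *atp6ap1la* on 11 and *atp6ap1lb* on 23. The shares of the other 4 pairs overlapped between genotypes (exact p = 0.2 to 0.8), and among them the share of *atp6ap1a* was 65.5% ± 1.79 in mutants and 64.4% ± 3.52 in wild-type larvae (SD, n = 3 pools each).

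**Figure D4:**
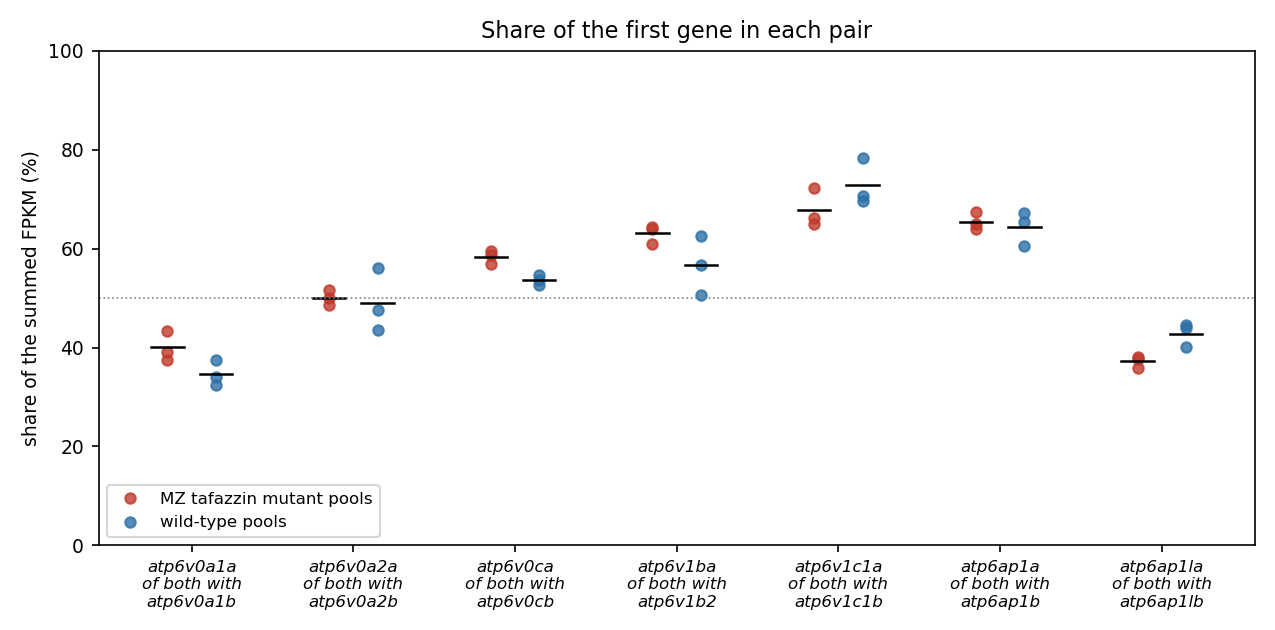
Share of the first gene of each pair in the summed FPKM of both, in percent, with MZ *tafazzin* mutant pools in red left of wild-type pools in blue, means as black lines and an even split as a dotted line. Mutant and wild-type points are apart for *atp6v0ca*, *atp6ap1la* and, by a narrow gap, *atp6v0a1a*.

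No gene of a list for assembly and regulation of the pump passed the test. The list also held the a3 subunit genes *tcirg1a* and *tcirg1b*, *ostm1* and genes of the *clcn* family. By limma, 0 of 21 genes were called over all genes tested, with an unadjusted p under 0.05 in 1 gene that was higher and 1 that was lower, against 9.88% and 6.4% of all genes tested, and their median log2 fold change was 0.04, against 0.002 over all genes. The gene with the smallest p was *tmem199*, an assembly factor of the endoplasmic reticulum, at 7.45, 7.39 and 6.12 FPKM in mutant pools, against 4.46, 5.33 and 3.86 FPKM in wild-type pools (limma, adjusted p = 0.139). The 1 lower at an unadjusted p under 0.05 was *tcirg1a*, a gene for the a3 subunit, which in mammals serves osteoclasts and lysosomes. The a subunit belongs to V0, but the symbol of *tcirg1a* kept it out of the members. It was at 5.45, 4.04 and 4.52 FPKM in mutant pools, against 7.51, 8.28 and 5.73 FPKM in wild-type pools (limma, adjusted p = 0.175). All mutant pools lay below all wild-type pools in *tcirg1a*, which is listed at 1 locus together with 1 other gene. The a3 gene *tcirg1b* averaged 7.37 FPKM in mutants and 7.00 FPKM in wild-type larvae. MiT/TFE factors activate lysosomal genes including V-ATPase genes in mammals. None of their 6 genes had an unadjusted p under 0.05 by limma, against 9.88% of all genes tested that were higher and 6.4% that were lower. *tfeb* averaged 9.42 FPKM in mutants and 8.77 FPKM in wild-type larvae. Of 13 genes listed for Ragulator and Rag GTPases, which work with the V-ATPase on the lysosome surface, 0 were called by limma. That list also held *slc38a9*, *flcn* and *fnip1*. At an unadjusted p under 0.05, 0 of the 13 were higher and 1 was lower, against 9.88% and 6.4% of all genes tested. Their log2 fold change was above 0 in 4 of the 13, against 50.4% of all genes tested, with a median of -0.06, against 0.002.

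Genes for lysosomal hydrolases and membrane proteins, which work in the compartment the pump acidifies, had a median log2 fold change of 0.09 over 55 genes, against 0.002 over all genes. The log2 fold change was above 0 in 42 of the 55, against 50.4% of all genes tested. By limma 1 of the 55 was called higher, against 0.696% of all genes tested. This was *ppt1*, a palmitoyl-protein thioesterase of the lysosome that is given 1 locus together with 1 other gene. *ppt1* was at 23.2, 22.4 and 26.1 FPKM in mutant pools, against 16.0, 15.7 and 15.0 FPKM in wild-type pools (limma, 0.58 on the log2 scale, adjusted p = 0.0361). Leaving out wild-type pool 2 kept that call, and leaving out any other single pool ended it (limma, adjusted p between 0.0953 and 0.128). It also ended without the filter on low values, without the trend and with the column number as a replicate block (limma, adjusted p = 0.109, 0.103 and 0.0509). The other 54 did not pass. At an unadjusted p under 0.05, 9 of the 55 were higher, *ppt1* included, against 9.88% of all genes tested, and 1 was lower, against 6.4%.

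Markers of cells that are rich in the pump were measured beside the members. Of 11 genes listed as markers of H+-ATPase-rich ionocytes and their lineage, 2 were called higher by limma, against 0.696% of all genes tested. These were *ca2*, a carbonic anhydrase, and *rhcgb*, an ammonia transporter. At an unadjusted p under 0.05, 4 of the 11 were higher, against 9.88% of all genes tested, and 0 were lower, against 6.4%. *ca2* was at 77.6, 74.3 and 117 FPKM in mutant pools, against 33.6, 38.4 and 35.6 FPKM in wild-type pools (limma, 1.27 on the log2 scale, adjusted p = 0.0155), and *rhcgb* at 14.3, 14.6 and 24.7 FPKM in mutant pools, against 6.02, 5.85 and 6.20 FPKM in wild-type pools (limma, 1.38 on the log2 scale, adjusted p = 0.0217). Leaving out mutant pool 0, wild-type pool 0 or wild-type pool 1 ended both calls, and leaving out mutant pool 1 ended that of *rhcgb* (limma, adjusted p between 0.0544 and 0.0978 where a call ended). Both also ended without the filter on low values or without the trend. The summed level of these 11 markers ran from 207 to 320 FPKM in mutant pools and from 146 to 153 FPKM in wild-type pools. The 9 markers that did not pass summed to 123, 119 and 178 FPKM in mutant pools, against 108, 108 and 104 FPKM in wild-type pools, a sum chosen after seeing the data, and mutant pool 2 stood far above the other pools in it. Among these 9, all mutant pools lay above all wild-type pools in *gcm2*, *ceacam1* and *foxi3b*, against 11.9% of all genes tested. Their means were 6.95, 57.1 and 16.3 FPKM in mutants, against 4.14, 38.1 and 11.1 FPKM in wild-type larvae. The others of the 9 overlapped between genotypes. *ca15a* was at 28.7, 24.7 and 36.1 FPKM in mutant pools, against 28.3, 26.5 and 28.6 FPKM in wild-type pools. *clcn2c* averaged 6.48 FPKM in mutants and 7.71 FPKM in wild-type larvae, and *slc9a3.2* 2.30 FPKM in mutants and 2.53 FPKM in wild-type larvae. The log2 fold change was above 0 in 9 of the 11 markers, against 50.4% of all genes tested, and none was listed at 0 throughout. Mutant pool 2 was the highest for *ca2* and *rhcgb*, and it was the highest mutant pool for most V-ATPase members. Among markers of other tissues it was also the highest mutant pool for *gfap* and *rho*, and the lowest for *krt4*. Liver genes differed, with mutant pool 2 the highest mutant pool for *fabp10a* and the lowest for *tfa*. Neither the part of these cells in the V-ATPase values nor whether each marker is particular to them was tested.

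**Figure D5:**
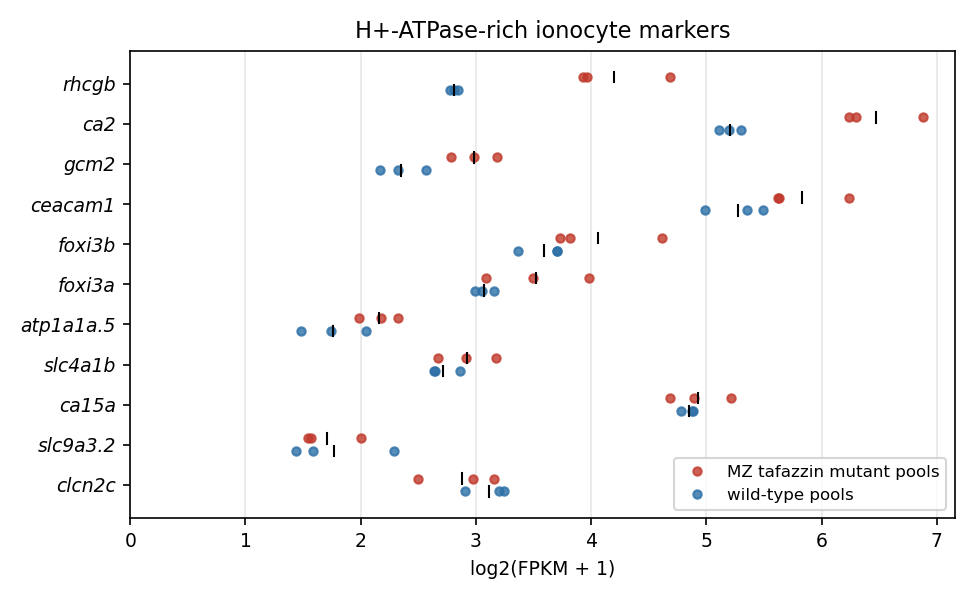
Level of 11 genes listed as markers of H+-ATPase-rich ionocytes and their lineage in each pool, as log2(FPKM + 1). MZ *tafazzin* mutant pools are in red above wild-type pools in blue, with means as black lines. *ca2* and *rhcgb* passed the test and stand apart by a log2 fold change of 1.27 and 1.38. *gcm2*, *ceacam1* and, by a narrow gap, *foxi3b* stand apart without passing, and the others, such as *ca15a*, overlap.

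Other cells that use the pump gave no call by limma over all genes tested. Of 26 markers of neurons and synaptic vesicles, 0 had an unadjusted p under 0.05, against 9.88% of all genes tested that were higher and 6.4% that were lower. The sum of these markers ran from 1195 to 1281 FPKM in mutant pools and from 1083 to 1263 FPKM in wild-type pools. Of 10 markers of osteoclasts and macrophages, 3 were higher at an unadjusted p under 0.05, against 9.88% of all genes tested, with sums of 36.2 to 44.3 FPKM in mutant pools and 30.1 to 36.0 FPKM in wild-type pools. These 3 were *mpeg1.1*, *csf1ra* and *mfap4*. The macrophage gene *mpeg1.1* was at 5.35, 4.81 and 5.61 FPKM in mutant pools, against 3.24, 2.74 and 3.37 FPKM in wild-type pools (limma, adjusted p = 0.0943). Log2 fold changes below 0 were those of *spi1b*, *csf1rb* and *calcr*, at -0.04, -0.09 and -0.21. Of 11 entries for markers of pigment cells, whose melanosomes carry the pump (*oca2* has 2 entries), 2 were lower at an unadjusted p under 0.05, against 6.4% of all genes tested, *slc45a2* with a mean of 5.48 FPKM in mutants and 9.22 FPKM in wild-type larvae and *slc24a5* with 1.38 FPKM in mutants and 2.51 FPKM in wild-type larvae. The summed levels of the 11 entries overlapped between genotypes. The log2 fold change was above 0 in 19 of 26 neuron markers, 7 of 10 osteoclast and macrophage markers and 3 of 11 pigment cell entries. Over all genes tested it was above 0 in 50.4%. Median log2 fold changes were 0.09 for the neuron markers, 0.30 for osteoclasts and macrophages and -0.15 for pigment cells. Over all genes tested the median was 0.002. Whether any of these cells had a part in the V-ATPase values was not tested.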

How the data were processed

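Reads were trimmed (Trim Galore 0.4.2) and mapped to GRCz11 (STAR 2.5.3), and the authors deposited FPKM per gene and pool from Cufflinks 2.2.1, per the methods and the submitters' processing notes. How libraries were scaled is not given in the sources used here, and depth is known only relative to other pools. The table also holds the authors' mean FPKM, fold changes, p-values and q-values from Cuffdiff, and a second table repeats the genes they marked. Neither those columns nor the second table was used. Columns show the genotype but not which labelled sample they are, so they served as unlabelled replicates. The labels do not say whether pools had separate parents, so p-values measure the spread between these pools, which may be technical. At most 0.0603% of genes averaging 5 FPKM or more held identical values in any pair of pools.

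Genes averaging 0.5 FPKM or more were fitted on log2(FPKM + 1) with limma 3.58.1 in R 4.3.3, with a mean-variance trend and Benjamini-Hochberg adjustment over 21843 genes. This scale understates the change of low genes. The fit was tested on simulated data whose log2 changes were larger than that of any member. How often it finds changes as small as those of the members was not examined. Shares were tested by exact permutation. The fit was repeated after quantile normalization or median scaling, without the trend, with a pseudocount of 0.1, with the filter at 5 FPKM or dropped, with the column number as a block, and with each pool left out in turn. Members and lists were chosen with earlier results of these data known. List symbols that had changed were matched through a RefSeq gene table (GRCz12tu), which also gave chromosome names. Values in every pool were to be given for members that passed and, in each sector, for those with the smallest p, the highest level or the lowest fold change, and up to 4 called genes of each other list, or the 2 of smallest p. Where these did not bear on the V-ATPase, lists are given as counts. A matching gene is not reported here. Figures were drawn with matplotlib 3.10.9 under Python 3.11.15, from tables read by pandas 2.3.3.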

Additional observations from a re-analysis of the deposited data

How the results depend on the processing

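None of the 310 values of the members under 13 alternatives passed the threshold, and 16 members kept their sign in all of them. The number of members higher at an unadjusted p under 0.05, 8, was 3 without the trend and 3 to 9 with 1 pool left out. The number lower, 0, was 1 under quantile normalization, median scaling or the replicate block, and 0 to 1 with 1 pool left out. The V0 median log2 fold change, 0.19, was 0.32 with a filter of 5 FPKM, 0.13 under quantile normalization, and 0.19 to 0.26 with 1 pool left out. The filter of 5 FPKM dropped *atp6v0a2a* and *atp6v0a2b*, which averaged 4.23 and 4.35 FPKM, and left the other V0 log2 fold changes as they were. With 1 pool left out the V1 median was 0.15 to 0.22 and the accessory median 0.056 to 0.10. Under quantile normalization the log2 fold change was -0.0025 for *atp6ap1lb*, -0.033 for *atp6ap2*, -0.015 for *atp6v0a1b*, -0.0093 for *atp6v1c1a* and -0.0013 for *atp6v1e1b*. With 1 pool left out it lay between -0.0038 and 0.076 for *atp6ap1lb*, -0.00056 and 0.15 for *atp6v0a1b*, -0.14 and 0.20 for *atp6v0a2b*, -0.061 and 0.062 for *atp6v1b2*, -0.035 and 0.14 for *atp6v1c1a*, -0.050 and 0.18 for *atp6v1e1b*, -0.17 and 0.091 for *atp6v1f*, 0.042 and 0.15 for *atp6v0cb*, 0.058 and 0.20 for *atp6v0a2a*, and 0.021 and 0.10 for *atp6ap2*. With 1 pool left out the difference in share lay between -1.70 and 4.54 percentage points for *atp6v0a2a* and between -0.878 and 2.51 percentage points for *atp6ap1a*. The cause of the other changes was not tested.

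For the other lists, alternatives were chosen after seeing the data. The 2 ionocyte markers called became 0 without the filter or the trend and 0 to 2 with 1 pool left out. The 1 lysosomal gene called became 0 without the filter, without the trend or with the replicate block, and 0 to 1 with 1 pool left out. With 1 pool left out 0 to 1 pigment cell markers were lower, and 0 to 1 larval tissue markers were higher and 0 to 1 lower. With a filter of 5 FPKM, 1 larval tissue marker was lower. The call of *tafazzin* was lost with a pseudocount of 0.1, without the filter or the trend, and under quantile normalization or median scaling (limma, adjusted p between 0.0510 and 0.173). Over all genes, 199 were called, against 6 without the filter, 38 without the trend, 353 with the replicate block and 15 to 422 with 1 pool left out. Same-numbered pools had correlations of 0.0167, 0.00389 and 0.0540 in their deviations from the genotype means, so the numbers were not taken to pair them. Depth is known only relative to other pools, so no counting error can be given for low genes such as *atp6v1c2*.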
